A study of Mus musculus with 12 samples.

Results

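The zinc finger genes that carry the mouse symbol Zfp followed by a number were examined in the brains of sham mice, ischemic mice given vehicle and ischemic mice given lactate. Members were the genes with an Ensembl identifier, a symbol of this form and a mean of at least 5 CPM (the reads of a gene scaled to the total count of its mouse) in the sham mice. The rule gave 167 members among 391 genes with such a symbol and 31208 genes in all. The sham level therefore chose the members, and it enters the comparisons with sham below, while the comparison of the ischemic groups used no sham mouse. The members nearest the limit were Zfp777 with a sham mean of 5.07 ± 1.32 CPM (SD, n = 4) and Zfp606 with 5.07 ± 1.44 CPM, and the nearest genes left out were Zfp607b with 4.93 ± 1.1 CPM and Zfp398 with 4.82 ± 1.49 CPM.

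The samples were brain tissue of C57BL/6 mice aged 8 weeks, 4 per group. The sham mice had the operation without ischemia. The other groups were taken 6 h after occlusion of the middle cerebral artery, and had received either vehicle or lactate by injection into the cerebral ventricles before the occlusion. The form given was D-lactate by the methods, the labels giving no form, and no sham mice given lactate were analysed here. Whether the sham mice had an injection is not given, so in comparisons with sham it cannot be told apart from ischemia. RNA was read as long nanopore cDNA reads after PCR.

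Zinc finger proteins of the C2H2 type hold a zinc ion in each of their fingers, and tandem fingers read DNA sequence, and in some proteins RNA. The largest family in mammals joins the fingers to a KRAB domain, which recruits the corepressor Trim28 and the histone methyltransferase Setdb1, and many of its members silence transposable elements. KRAB zinc finger genes lie in genomic clusters that arose by tandem duplication. Other proteins of this name carry a SCAN or BTB domain for pairing, or act outside transcription, as in RNA binding and protein degradation.

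By the protein domain entries of the deposited table, 76 members had a KRAB domain, 69 had C2H2 fingers with no KRAB, SCAN or BTB domain, 4 had a SCAN or BTB domain without KRAB, and 18 had none of these entries. Zfp207, for example, is in the last group because the table gives it no domain entry. The pathway annotation of the same table named 64 members as KRAB proteins, among them Zfp180 and Zfp956, which have no KRAB entry by domain. All 167 members are protein-coding genes in GENCODE release M21 (GRCm38), and 37 of them lie on chromosome 7 and 20 on chromosome 17.

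The sequences that follow are the 250 bases upstream of the RefSeq start of 5 members that passed the test between lactate and sham, namely Zfp180, which rose, and Zfp30 and Zfp14 of a cluster on chromosome 7 and the neighbours Zfp637 and Zfp239, which fell. Each reads 5′ to 3′ on the strand of its gene (RefSeq, GRCm38.p6), and capitals mark matches on either strand to 1 of 6 motifs searched. These were CCAAT (the box bound by NF-Y), GGGCGG (the core of the GC box), CCGGAAG (a core bound by ETS factors), TATAAA (the TATA box), TGACGTCA (the cAMP response element) and GCATGCGC (a core bound by NRF1).
Zfp180: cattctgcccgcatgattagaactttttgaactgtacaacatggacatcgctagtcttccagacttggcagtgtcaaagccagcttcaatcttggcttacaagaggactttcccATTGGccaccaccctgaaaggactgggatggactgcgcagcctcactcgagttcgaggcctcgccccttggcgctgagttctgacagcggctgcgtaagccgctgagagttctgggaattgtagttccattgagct
Zfp30: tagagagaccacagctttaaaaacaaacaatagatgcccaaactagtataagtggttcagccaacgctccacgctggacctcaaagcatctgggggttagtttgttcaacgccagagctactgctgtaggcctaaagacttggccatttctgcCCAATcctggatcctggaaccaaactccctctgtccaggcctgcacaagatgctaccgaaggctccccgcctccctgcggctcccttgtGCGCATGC
Zfp14: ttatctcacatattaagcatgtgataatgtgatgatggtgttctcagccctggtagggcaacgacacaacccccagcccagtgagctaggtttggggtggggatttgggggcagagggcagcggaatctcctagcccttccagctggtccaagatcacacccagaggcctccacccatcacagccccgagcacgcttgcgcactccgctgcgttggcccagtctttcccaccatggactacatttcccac
Zfp637: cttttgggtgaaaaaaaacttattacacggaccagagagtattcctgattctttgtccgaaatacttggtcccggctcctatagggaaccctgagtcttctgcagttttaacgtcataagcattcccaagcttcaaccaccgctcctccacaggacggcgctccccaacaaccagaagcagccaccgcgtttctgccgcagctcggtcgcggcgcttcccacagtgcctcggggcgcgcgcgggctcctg
Zfp239: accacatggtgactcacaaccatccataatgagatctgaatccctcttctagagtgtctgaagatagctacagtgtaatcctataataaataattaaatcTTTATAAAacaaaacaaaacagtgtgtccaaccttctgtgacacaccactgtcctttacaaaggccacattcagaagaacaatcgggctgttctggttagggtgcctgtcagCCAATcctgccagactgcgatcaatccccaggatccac
They lie at chr7:24081647-24081896 on the plus strand (Zfp180), chr7:29783718-29783967 on the plus strand (Zfp30), chr7:30051397-30051646 on the minus strand (Zfp14), chr6:117840931-117841180 on the plus strand (Zfp637) and chr6:117861774-117862023 on the plus strand (Zfp239). For Zfp637 and Zfp239 the first of 2 listed starts was used. A CCAAT match was found upstream of Zfp180, Zfp30 and Zfp239, a GCATGCGC match lay directly before the start of Zfp30, and 2 overlapping TATAAA matches lay upstream of Zfp239. No match was found upstream of Zfp14 or Zfp637, which says only that these letters are not in those windows.

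An upstream sequence was found for 142 members. CCAAT was present in 43.7% of them and in 34.5% of the 27018 genes with such a sequence, GGGCGG in 46.5% and 32.9%, and CCGGAAG in 16.9% and 7.06%. TATAAA was present in 7.75% of member sequences and 13.0% of all, TGACGTCA in 2.82% and 1.62%, and GCATGCGC in 3.52% and 2.32%. The median GC content of these windows was 56.4% for members and 52.0% for all genes. Among the 67 KRAB members with a sequence, CCGGAAG was present in 22.4% and GGGCGG in 37.3%.

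The total count ranged from 6815920 to 10677224 reads per mouse, and each member had at least 11 reads in every mouse, with a median of 81 reads per member and mouse in sham. At the shallowest and the deepest mouse, 3 reads correspond to 0.440 and 0.281 CPM, and such values cover counting error only. Over members, the median CV between mice was 17.3% in sham, 23.1% in vehicle-treated and 18.5% in lactate-treated mice, and the counting error alone would give 11.1%, 11.4% and 11.8%. Vehicle mouse 1 stood apart from the other 11 mice on the second principal component of all genes.

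Per kilobase of annotated exon, the levels of the members in sham ranged from 0.376 to 55.9 CPM, with a median of 2.02. The highest were the KRAB gene Zfp938 at 55.9 CPM per kilobase and Zfp637 at 52.3, and Zfp970 came next at 20.1. The median was 1.78 CPM per kilobase for KRAB members and 2.12 for C2H2 members without KRAB. Zfp970 and its relatives Zfp931, Zfp965, Zfp968 and Zfp971 on chromosome 2 are closely related in sequence, so reads may have been divided among them and their levels are uncertain.

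In CPM, not scaled for length, the 5 highest members in sham were Zfp637, Zfp938, Zfp706, Zfp207 and Zfp330. Zfp938 had 101, 130, 101 and 145 CPM in sham mice 1 to 4, 65.6, 110, 119 and 116 CPM in vehicle-treated mice, and 108, 107, 122 and 136 CPM in lactate-treated mice. The groups overlapped, and the log2 fold change from sham was -0.18 ± 0.20 (SE) with vehicle and 0.01 ± 0.14 with lactate. Zfp706, a small protein known to repress Klf4 in stem cells, had group means of 78.8 ± 10.8, 76.7 ± 13.0 and 79.4 ± 6.11 CPM (SD, n = 4). Zfp330, a nucleolar protein, had 70.4 ± 7.96, 59.3 ± 13.9 and 52.4 ± 13.1 CPM, with an adjusted p of 0.145 for lactate against sham by edgeR's quasi-likelihood test, which is used throughout.

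The members together took 2774, 2598, 2740 and 2885 CPM in sham mice 1 to 4, which is 0.260% to 0.288% of all reads. They took 2496, 2563, 2570 and 2530 CPM in vehicle-treated mice and 2325, 2331, 2548 and 2538 CPM in lactate-treated mice. Every ischemic mouse lay below every sham mouse, and the ischemic groups overlapped. The mean difference from sham was -7.61% with vehicle and -11.4% with lactate. Because the sham level chose the members, the sum was also taken over 156 genes with a mean of 5 CPM over all 12 mice. There vehicle-treated mice reached 2560 CPM against a lowest sham value of 2545 CPM. The highest lactate-treated mouse, at 2522 CPM, stayed below that sham value. These genes include Zfp36, which is not a member and had 8.62 to 29.4 CPM in vehicle-treated and 1.85 to 5.43 CPM in sham mice. The sum without Zfp36 was not taken. In bulk tissue, fewer cells of a type and less RNA per cell cannot be told apart.

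By class, the KRAB members summed to 875 to 1036 CPM in sham, 721 to 866 in vehicle-treated and 720 to 870 in lactate-treated mice. Both ischemic groups lay below sham and overlapped each other. The margin was narrow, with the highest lactate-treated mouse at 870 CPM and the lowest sham mouse at 875 CPM. The sham level chose these members, and no class sum was taken over genes chosen by the mean of all mice. Whether the KRAB gap depends on that choice was therefore not tested. The C2H2 members without KRAB summed to 1210 to 1291 CPM in sham, 1180 to 1207 in vehicle-treated and 1046 to 1150 in lactate-treated mice. Here the 3 ranges did not overlap, and the sham values that bound the gap are those that chose the members. With TMM scaling, sham (1213 to 1281) and vehicle-treated mice (1188 to 1226) overlapped, and lactate-treated mice (1062 to 1152) lay below both. The members with neither entry summed to 418 to 471, 393 to 492 and 384 to 455 CPM, and the ranges overlapped.

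**Figure D1:**
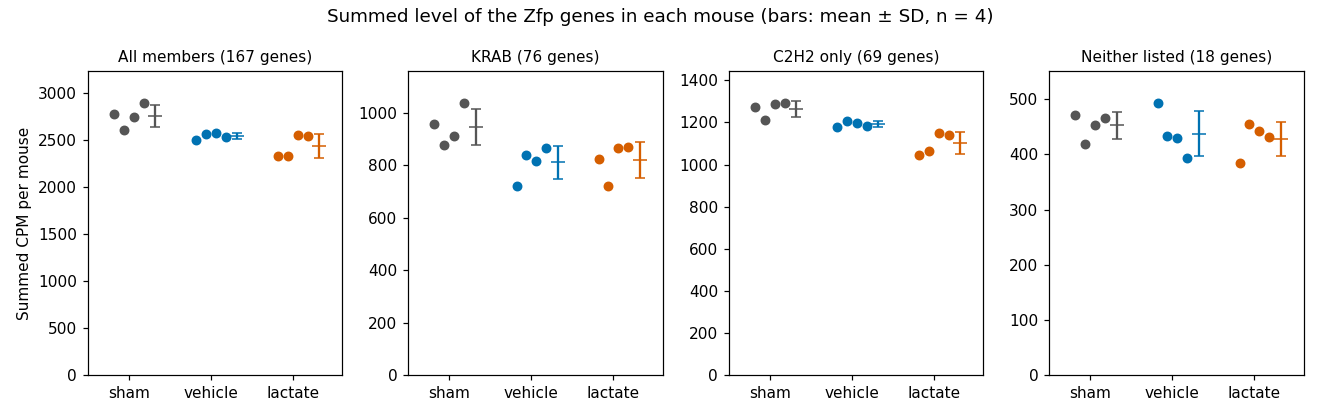
Summed CPM (y axis, from 0) of all members and of 3 classes in each of the 12 mice, by group on the x axis, with 1 point per mouse and the mean ± SD (n = 4) beside the points. All 4 sham mice, from 2598 to 2885 CPM over all members, lie above the 8 ischemic mice.

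The first comparison asked which members differed after 6 h of ischemia with vehicle. No member passed the test at an adjusted p under 0.05, against 1.47% of the 17019 genes tested, of which 1.29% rose and 0.182% fell. At an unadjusted p under 0.05, 19 members (11.4%) passed, against 13.8% of all genes. DESeq2 called 1 member, Zfp787, with an adjusted p of 0.0136. At looser limits, an unadjusted p under 0.05 with a fold of 1.5 or more, 3 members were higher (Zfp787, Zfp358 and Zfp771) and 5 lower (Zfp14, Zfp280d, Zfp322a, Zfp46 and Zfp27), where all genes gave 6.5% and 3.01% and the 9598 tested Ensembl genes with a sham mean of at least 5 CPM gave 321 higher and 205 lower. The member counts were 5 and 8 without vehicle mouse 1, 8 lower without vehicle mouse 3, 6 and 9 without vehicle mouse 4, and 3 lower without sham mouse 4. Limma voom called 0 members.

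Among members with higher values, Zfp787 had 6.86, 10, 10 and 8.88 CPM in sham mice, 17.0, 16.7, 14.4 and 12.5 CPM in vehicle-treated mice, and 7.71, 11.4, 7.65 and 12.8 CPM in lactate-treated mice. The vehicle-treated mice all lay above sham, and the lactate-treated mice overlapped both groups. Its log2 fold change was 0.79 ± 0.20 (adjusted p = 0.0894) with vehicle and 0.17 ± 0.22 (0.672) with lactate, each against sham, and -0.64 ± 0.22 (0.496) for lactate against vehicle. The next 4 by p were Zfp358, Zfp574, Zfp410 and Zfp428, with log2 fold changes of 0.68, 0.57, 0.49 and 0.44 and adjusted p from 0.222 to 0.301.

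Among members with lower values, Zfp322a, studied as a regulator of pluripotency in stem cells, had 7.65, 7.91, 9.78 and 8.63 CPM in sham and 5.81, 5.31, 3.36 and 4.99 CPM with vehicle. All vehicle-treated mice lay below sham, and the log2 fold change was -0.76 ± 0.23 (adjusted p = 0.157). Zfp14, Zfp46, Zfp30 and Zfp236 followed, with log2 fold changes of -0.80, -0.77, -0.55 and -0.58 and adjusted p from 0.168 to 0.257. The groups did not overlap for 2 members that were higher, Zfp787 and Zfp574, and for 10 that were lower, which is 1.2% and 5.99% of members against 4.14% and 4.89% of all genes. The sham values chose the members, and no such share was taken over genes at the same sham level. The largest log2 fold change among members, 1.24 ± 0.52 for Zfp771, rested on vehicle mouse 3, which had 37.8 CPM while the other 3 vehicle-treated mice had 4.55 to 11.7 CPM.

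The second comparison set lactate-treated ischemic mice against sham. Of the members, 3 rose and 10 fell, together 7.78% of members against 12.3% of all 17262 genes tested. In direction, 1.80% of members rose against 8.76% of all genes, and 5.99% fell against 3.55%. At the looser limits, 1 member, Zfp410, was higher and 19 were lower, where all genes gave 11.9% and 5.65% and those Ensembl genes 367 higher and 477 lower. The number higher was 3 without lactate mouse 1, and the number lower was 12 without sham mouse 4 or with only Ensembl genes. Among the 9598 Ensembl genes with a sham mean of at least 5 CPM that were tested, 436 rose and 472 fell. The members that rose were Zfp410, Zfp180 and Zfp24, and those that fell were Zfp46, Zfp945, Zfp30, Zfp239, Zfp14, Zfp512b, Zfp637, Zfp354b, Zfp956 and Zfp433. The number that fell was 3 to 6 without any 1 of sham mice 1, 3 and 4 or lactate mice 1 to 3, and the number that rose was 1 without sham mouse 3 or lactate mouse 3. Among the 156 genes chosen by the mean of all 12 mice, 4 rose and 7 fell, and those that rose include Zfp36, which is not a member. Zfp46, Zfp354b and Zfp433 are not among the 156 genes, since they reach 5 CPM through the sham mice. Their place among the members thus depends on the group in which they are high. The groups did not overlap for 3 members that were higher and 23 that were lower, which is 1.80% and 13.8% of members against 10.4% and 8.74% of all genes. These counts use the sham values that chose the members, and no share was taken over genes at the same sham level.

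Zfp410 (ENSMUSG00000042472, chr12:84316852-84343723) is known to activate Chd4, a subunit of the NuRD chromatin remodelling complex. It had 12.9, 11.1, 13.0 and 12.2 CPM in sham, 12.6, 18.6, 17.1 and 19.5 CPM with vehicle, and 16.2, 20.5, 18.7 and 19.5 CPM with lactate. All lactate-treated mice lay above all sham mice, and 3 of 4 vehicle-treated mice did too. The log2 fold change for lactate against sham was 0.64 ± 0.14 (adjusted p = 0.0117), and it passed in all 8 other settings and in all 8 fits that left out 1 mouse. Chd4 itself had 82.8 ± 12.4 CPM in sham and 68.5 ± 7.12 CPM with lactate (log2 fold change -0.24 ± 0.12, adjusted p = 0.237).

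Zfp180 (ENSMUSG00000057101, chr7:24081924-24107713), whose upstream sequence is shown above, had 18.2, 18.7, 18.2 and 17.5 CPM in sham, 20.4, 22.3, 18.9 and 16.9 CPM with vehicle, and 24.3, 26.9, 28.7 and 23.0 CPM with lactate. The lactate-treated mice lay above all 8 other mice. The log2 fold change was 0.53 ± 0.13 against sham (adjusted p = 0.0186) and 0.37 ± 0.16 against vehicle (adjusted p = 0.549). Against sham the adjusted p went to between 0.050 and 0.0573 without sham mouse 3 or 4 or lactate mouse 3.

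Zfp24, a SCAN domain protein needed for the maturation of oligodendrocytes, had 12.4, 8.47, 11.5 and 13.0 CPM in sham, 11.1, 13.5, 13.8 and 15.6 CPM with vehicle, and 15.1, 16.2, 17.4 and 17.3 CPM with lactate. The lactate-treated mice lay above sham and overlapped the vehicle-treated mice at their lower end. The log2 fold change against sham was 0.58 ± 0.16 (adjusted p = 0.0336), which went to between 0.0545 and 0.0800 without any 1 of sham mice 1 to 3 or lactate mice 2 to 4, and to 0.0641 without a filter on low counts. The summed level of the 8 oligodendrocyte markers was 7072 to 11308 CPM in sham and 8871 to 9919 CPM with lactate, and among them Cnp and Mog fell with log2 fold changes of -0.53 ± 0.12 and -0.60 ± 0.14 (adjusted p = 0.0131 and 0.0125), while Olig2, Olig1 and Mobp had 0.88, 0.19 and 0.15, Mag and Mbp had -0.11 and -0.02, and none of these 5 passed. Over the 8 markers, 4 values were negative and the median was 0.00.

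Of the members that fell, Zfp46 (ENSMUSG00000051351, chr4:136284683-136293942) had the largest log2 fold change. It is a member only through its sham values, and among the genes chosen by the mean of all 12 mice the lowest was -0.93. This KRAB gene had 6.99, 6.58, 8.15 and 4.32 CPM in sham, 4.21, 3.24, 4.36 and 2.93 CPM with vehicle, and 2.03, 2.51, 3.69 and 2.78 CPM with lactate. All lactate-treated mice lay below sham, and sham mouse 4 overlapped the vehicle-treated mice. The log2 fold change for lactate against sham was -1.20 ± 0.26 (adjusted p = 0.0101), which passed in all 16 other fits. These fits use the sham values that made it a member. The KRAB gene Zfp945 (ENSMUSG00000059142, chr17:22846697-22867134) had 22.8, 20, 12.9 and 20.1 CPM in sham and 12.7, 8.26, 10.5 and 7.54 CPM with lactate. These groups did not overlap, with sham mouse 3 close to lactate mouse 1. Its log2 fold change was -0.93 ± 0.21 (adjusted p = 0.0137), and the adjusted p was 0.0507 when all 12 mice were fitted together.

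Zfp30 (ENSMUSG00000047473, chr7:29783998-29794702) and Zfp14 (ENSMUSG00000053985, chr7:30036359-30051380) are KRAB genes of the same cluster, and their upstream sequences are shown above. Zfp30 had 17.4, 17.7, 11.1 and 14.6 CPM in sham, 11.4, 8.81, 10.3 and 9.98 CPM with vehicle, and 9.74, 5.63, 8.83 and 8.00 CPM with lactate. Zfp14 had 16.5, 10.9, 11.7 and 13.4 CPM in sham, 5.15, 8.29, 5.85 and 10.3 CPM with vehicle, and 5.95, 7.90, 10 and 7.19 CPM with lactate. For both genes every lactate-treated mouse lay below every sham mouse, and for Zfp14 every vehicle-treated mouse did too. The log2 fold change with lactate was -0.89 ± 0.21 for Zfp30 (adjusted p = 0.0155), which passed in all 16 other fits, and -0.72 ± 0.20 for Zfp14 (adjusted p = 0.0298). The adjusted p of Zfp14 was 0.0705 with all 12 mice in 1 fit, and 0.0504 to 0.0914 without any 1 of sham mice 1, 3 and 4 or lactate mice 1, 2 and 4.

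Zfp637 (ENSMUSG00000059689, chr6:117841180-117845956), the member with the most reads, and Zfp239 (ENSMUSG00000042097, chr6:117862100-117873291), known as Mok2, a DNA- and RNA-binding protein, lie next to each other on the plus strand. Zfp637 had 135, 132, 128 and 141 CPM in sham, 86.3, 118, 118 and 119 CPM with vehicle, and 111, 88.6, 103 and 108 CPM with lactate. Zfp239 had 40.6, 35.4, 35.0 and 37.9 CPM in sham, 33.1, 28.4, 19.9 and 24.4 CPM with vehicle, and 18.8, 16.0, 25.4 and 30.1 CPM with lactate. All 8 ischemic mice lay below all 4 sham mice for each of these genes. With lactate the log2 fold change was -0.36 ± 0.10 for Zfp637 (adjusted p = 0.0361) and -0.69 ± 0.18 for Zfp239 (adjusted p = 0.0223), and with vehicle it was -0.25 ± 0.14 (0.454) and -0.45 ± 0.17 (0.273). The call for Zfp637 was lost (adjusted p 0.0573 to 0.111) without any 1 mouse other than lactate mouse 1, in 1 fit of all 12 mice (0.0911) and with only Ensembl genes (0.0781), and the call for Zfp239 (0.0539 to 0.0665) without any 1 of sham mice 1 and 4 or lactate mice 1 and 2.

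The other 4 members that fell were Zfp512b, Zfp354b, Zfp956 and Zfp433. Zfp512b had 29.4, 13.7, 23.0 and 21.5 CPM in sham and 13.7, 13.9, 11.9 and 13.3 CPM with lactate, and sham mouse 2 lay within the lactate-treated range. Its log2 fold change was -0.69 ± 0.19 (adjusted p = 0.0340), and the adjusted p was 0.0611 to 0.107 without any 1 mouse other than sham mouse 2. The KRAB gene Zfp354b fell by 0.99 ± 0.29 on the log2 scale (adjusted p = 0.0424), from 5.09 ± 0.861 to 2.5 ± 1.15 CPM (SD, n = 4), and the adjusted p was 0.0651 to 0.122 without any 1 mouse other than lactate mouse 3. Zfp956 fell from 49.6 ± 9.56 to 33.4 ± 4.38 CPM (log2 fold change -0.55 ± 0.16, adjusted p = 0.0432), with 0.0546 to 0.120 without any 1 mouse other than sham mouse 1 and 0.161 in 1 fit of all 12 mice. The KRAB gene Zfp433 fell from 5.98 ± 1.78 to 3.23 ± 0.420 CPM (log2 fold change -0.85 ± 0.26, adjusted p = 0.0465), with 0.0652 to 0.132 without any 1 mouse other than sham mouse 2 and 0.135 in 1 fit of all 12 mice. With only Ensembl genes the adjusted p was 0.0550 for Zfp512b, 0.0659 for Zfp354b, 0.0828 for Zfp956 and 0.0733 for Zfp433, limma voom gave 0.0627 for Zfp512b, 0.0589 for Zfp956 and 0.0737 for Zfp433, and the fit of all 12 mice gave 0.0542 for Zfp354b.

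**Figure D2:**
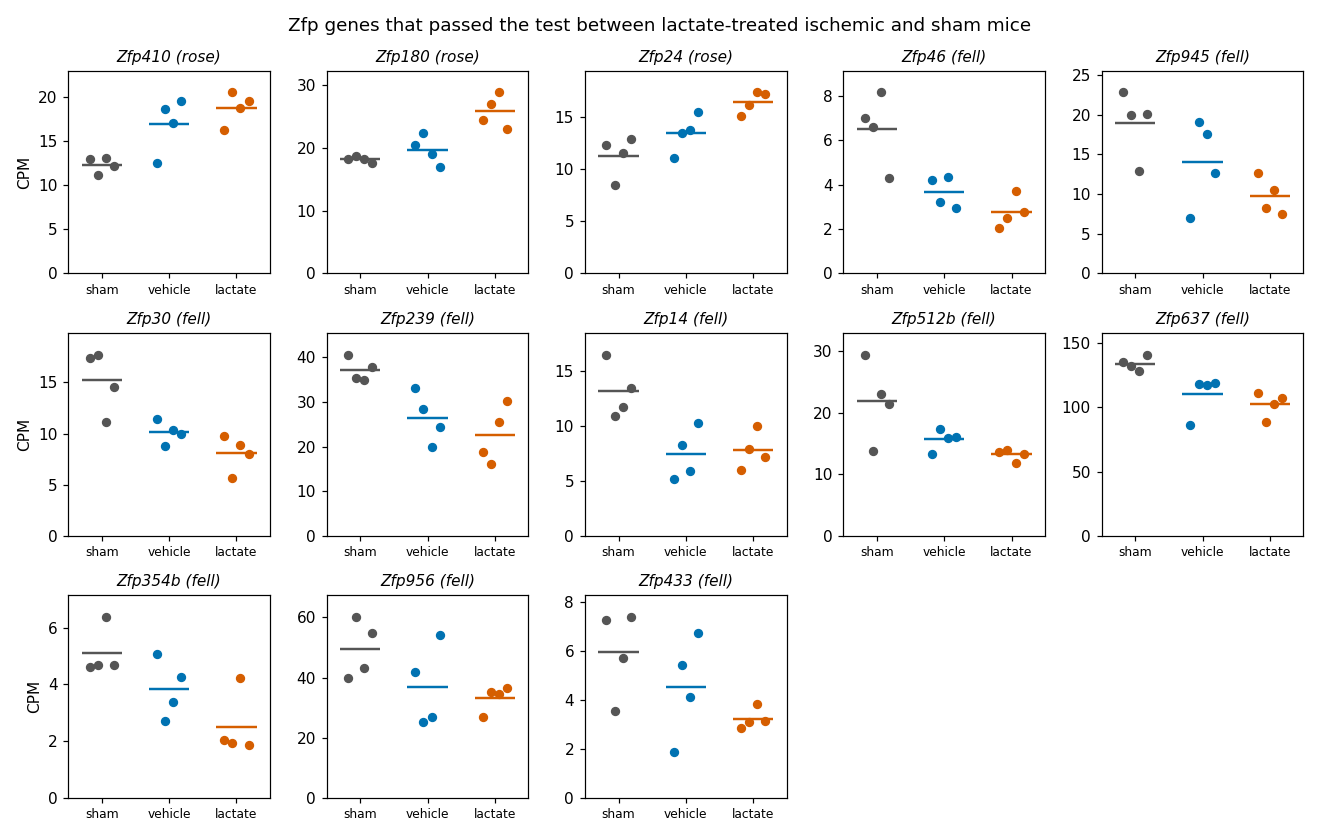
CPM (y axis, from 0) of the 13 members that passed the test between lactate-treated ischemic and sham mice, with 1 point per mouse, a line at each group mean (n = 4) and the 3 groups on the x axis. In the panel of Zfp180 the lactate-treated mice, from 23.0 to 28.7 CPM, lie above all others, and in the panels of Zfp637 and Zfp239 the 8 ischemic mice lie below the sham mice.

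The median log2 fold change of the members was -0.14 with vehicle and -0.18 with lactate, each against sham, and -0.09 between the ischemic groups, where it was -0.05 without lactate mouse 2 and -0.14 without vehicle mouse 3. Over all genes tested it was 0.00, -0.03 and -0.03, and over the 6794 Ensembl genes tested with a sham mean of 5 to 50 CPM it was -0.02, -0.08 and -0.08. Against sham, 68.3% of members had a negative log2 fold change with vehicle and 68.9% with lactate, where the genes at 5 to 50 CPM gave 53.3% and 60.6%. Between the ischemic groups the shares were 61.7% of members and 62.4% of those genes. The 2 comparisons with sham share the sham mice. With the 156 genes chosen by the mean of all mice, the medians were -0.09, -0.12 and -0.09.

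KRAB members had medians of -0.19, -0.19 and -0.07 in these 3 comparisons, and the other 91 members had -0.08, -0.16 and -0.14. With vehicle, 60 of 76 KRAB members and 54 of 91 others had a negative value. With lactate against sham, 6 KRAB members fell and 0 rose, and of the others 4 fell and 3 rose. Of all genes, 3.55% fell and 8.76% rose. In either direction 7.89% of KRAB members and 7.69% of the others passed. Among the 9598 tested Ensembl genes with a sham mean of at least 5 CPM, 9.46% passed, of which 472 fell and 436 rose. Of the 6 KRAB members, Zfp46, Zfp354b and Zfp433 reach 5 CPM through the sham mice, so that this count depends on the sham-based rule. Under the pathway annotation, 5 of 64 KRAB members fell and 1, Zfp180, rose. Under the pathway annotation of KRAB proteins the median with vehicle was -0.11, and 45 of 64 (70.3%) had a negative value, where 68.3% of all members did. Leaving out vehicle mouse 1, the KRAB median with vehicle was -0.17, and over all fits that left out 1 mouse it ranged from -0.24 to -0.14. With lactate against sham it was -0.10 without lactate mouse 2 and -0.28 without sham mouse 2, and between the ischemic groups it ranged from -0.10 to 0.01. The median of the other members with vehicle ranged from -0.09 to -0.02, the latter without sham mouse 4.

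**Figure D3:**
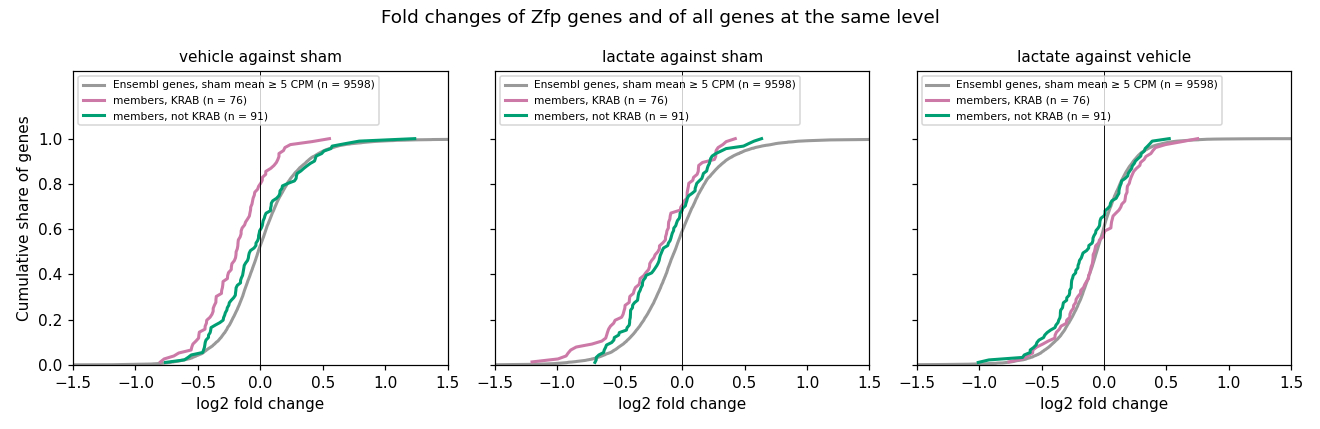
Cumulative share of genes (y axis) against log2 fold change (x axis, shown from -1.5 to 1.5) in the 3 comparisons, for KRAB members, the other members and Ensembl genes with a sham mean of at least 5 CPM. In the left panel the curve of the KRAB members, with a median of -0.19, lies to the left of that of the other members over most of its range, with a median of -0.08.

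The third comparison, lactate-treated against vehicle-treated ischemic mice, did not use the sham level that chose the members. No member passed the test, against 0.00574% of the 17419 genes tested, which is 1 gene. At an unadjusted p under 0.05, 11 members (6.59%) passed, against 8.84% of all genes, and DESeq2 and limma voom called 0 members as well. At the looser limits, 1 member, Zfp369, was higher and 6 were lower, where all genes gave 3.76% and 2.47% and the 9598 Ensembl genes with a sham mean of at least 5 CPM gave 87 higher and 213 lower. The number higher was 4 without vehicle mouse 1, 3 without vehicle mouse 3, 2 without lactate mouse 2 and 0 without lactate mouse 1, and the number lower was 1 without lactate mouse 1. The groups did not overlap for 3 members that were higher (Zfp207, Zfp180 and Zfp369) and 1 that was lower (Zfp329), against 2.99% and 1.83% of all genes. These p-values do not show that the members act alike in the ischemic groups.

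Zfp207, a protein of the mitotic spindle and of RNA splicing, had 65.7, 71.4, 75.9 and 66.3 CPM with vehicle and 77.5, 89.1, 95.2 and 94.0 CPM with lactate. All lactate-treated mice lay above all vehicle-treated mice, while sham mice had 68.0, 59.7, 80.0 and 77.2 CPM. The log2 fold change was 0.33 ± 0.12 against vehicle (adjusted p = 0.524) and 0.35 ± 0.12 against sham (adjusted p = 0.0683), and DESeq2 gave 0.0432 against sham. Zfp369, a paralogue of the neurotrophin receptor-interacting factor, had 6.18, 6.09, 5.48 and 4.40 CPM with vehicle and 15, 6.71, 9.49 and 6.84 CPM with lactate. Its log2 fold change of 0.75 ± 0.29 (adjusted p = 0.524) was the highest of the members in this comparison, and lactate mouse 1 lay well above the others. Zfp37 and Zfp87 had log2 fold changes of 0.41 ± 0.24 and 0.39 ± 0.24.

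Lower values with lactate than with vehicle were found for Zfp329, with 9.46, 9.58, 8.96 and 8.66 CPM with vehicle and 4.87, 6.11, 6.99 and 6.73 CPM with lactate. The groups did not overlap, and the log2 fold change was -0.59 ± 0.20 (adjusted p = 0.496). Zfp57, a KRAB protein that maintains DNA methylation at imprinted genes, had 9.27, 9.07, 7.34 and 4.84 CPM with vehicle and 3.79, 6.35, 4.75 and 3.48 CPM with lactate, which overlapped (log2 fold change -0.76 ± 0.28, adjusted p = 0.517). Zfp575 and Zfp788 had -0.92 ± 0.31 and -0.61 ± 0.24. Among the 13 members that passed between lactate and sham, log2 fold changes against vehicle ran from -0.65 for Zfp354b to 0.37 for Zfp180.

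Members with roles beyond DNA binding were given by name whatever their values. Zfp638, an RNA- and DNA-binding nuclear protein, had 44.7, 31.7, 50.1 and 47.1 CPM in sham, 38.8, 35.1, 32 and 31.4 CPM with vehicle, and 28.0, 18.6, 29.4 and 35.4 CPM with lactate. The lactate-treated mice overlapped sham through 1 mouse of each group, and the log2 fold change was -0.61 ± 0.19 (adjusted p = 0.0521). The ubiquitin ligase Zfp91 had 40.9 ± 9.01, 48.1 ± 18.9 and 33.8 ± 3.71 CPM in sham, vehicle-treated and lactate-treated mice, Zfp598, the ubiquitin ligase that senses collided ribosomes, had 21.3 ± 6.72, 15.8 ± 2.27 and 15.6 ± 2.84 CPM, and Zfp326, which links messenger RNA particles to RNA polymerase, had 21.2 ± 2.42, 22.0 ± 2.77 and 21.9 ± 5.05 CPM (SD, n = 4). None of these passed the test in any comparison.

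Of the other members named in the same way, Zfp148, which binds GC-rich promoters, had 22.5 ± 1.93 CPM in sham, 19.1 ± 5.42 with vehicle and 16.9 ± 2.28 with lactate, where sham and lactate did not overlap (log2 fold change -0.38 ± 0.15, adjusted p = 0.108). Its relative Zfp281 had 11.2 ± 3.08, 10.8 ± 1.42 and 8.13 ± 3.00 CPM, and Zfp536, a repressor of neuronal differentiation, had 5.40 ± 1.58, 5.32 ± 1.73 and 6.19 ± 1.31 CPM. Zfp365, a centrosomal protein, had 38.3 to 53.8 CPM in sham and 38.3 to 47.2 CPM with lactate, and in vehicle mouse 1 it had 102 CPM against 38.1 to 45.5 CPM in the other 3.

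The members lie close together in many places. With genes joined where the gap to the next member was at most 200 kb, 67 members formed 23 clusters of up to 6 genes with 44 adjacent pairs. Between the ischemic groups, 33 of 44 adjacent pairs had log2 fold changes of the same sign, and Pearson's r across the pairs was 0.36. The pair counts were 26 with vehicle and 19 with lactate against sham, with r of 0.23 and -0.07. These values are across gene pairs that share mice, and pairs within a cluster share genes, so they are descriptions only.

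In the cluster on chromosome 7 that holds Zfp30 and Zfp14, Zfp27 had a log2 fold change of -0.91 ± 0.31 with lactate against sham (adjusted p = 0.0768), Zfp940 had -0.27, Zfp146 had -0.17 and Zfp260 had 0.16. The KRAB members had negative values there, and Zfp260 and Zfp146, which have no KRAB entry, lay nearest to 0. On chromosome 11, Zfp354c, Zfp2 and Zfp354b had -0.57, -0.64 and -0.99. On chromosome 13, Zfp874a, Zfp87 and Zfp738 had -0.69, -0.37 and -0.44 with vehicle against sham and 0.49, 0.39 and 0.29 with lactate against vehicle, none of which passed, and both comparisons use the same vehicle-treated mice. Around Zfp180 the signs were mixed, with -0.34 for Zfp235 and -0.46 for Zfp94 with lactate against sham.

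**Figure D4:**
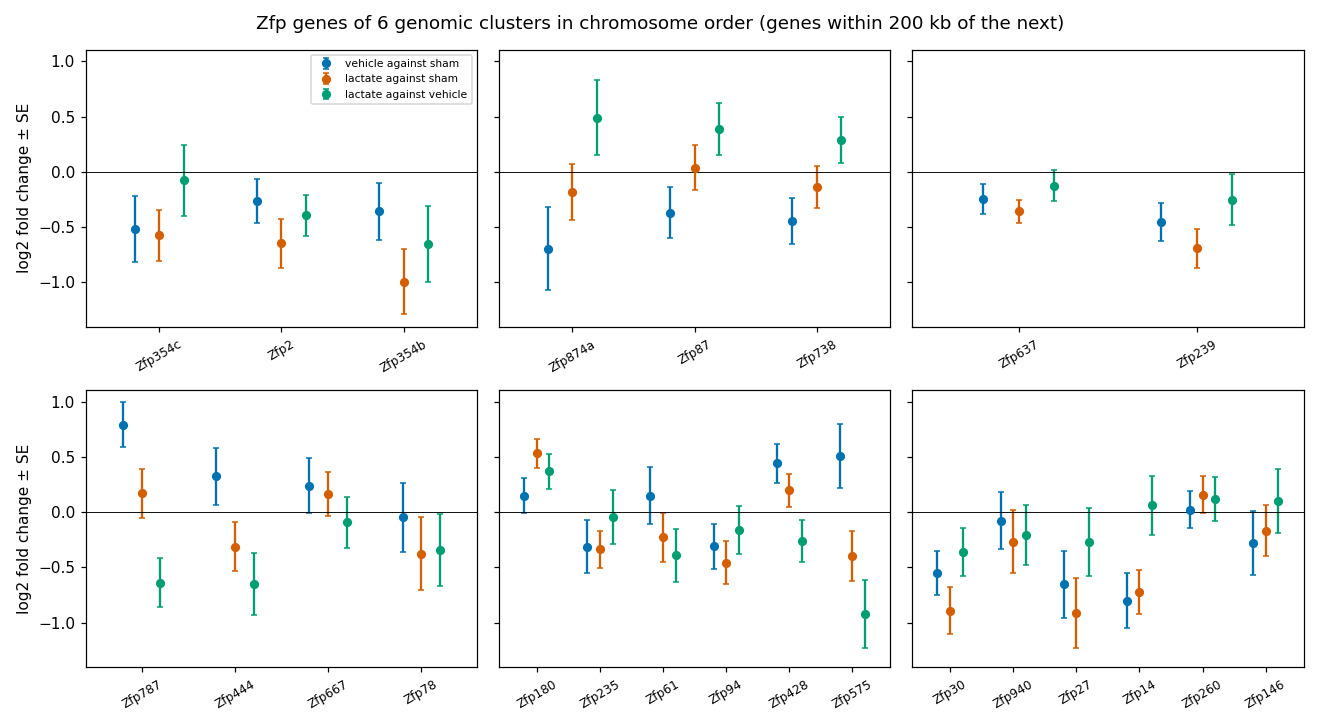
Log2 fold change ± SE (y axis) of the members of 6 genomic clusters, placed on the x axis in the order in which they lie on the chromosome, for the 3 comparisons. In the cluster of Zfp30 the lactate against sham values run from -0.91 for Zfp27 to 0.16 for Zfp260.

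Transcripts of the members were poor in G and C, with a median of 45.7% in the longest coding transcript and 41.9% for KRAB members, where the Ensembl genes at 5 to 50 CPM had 49.9%. Between lactate and vehicle the median log2 fold change was -0.04 for the 81 members under 45% GC and -0.27 for the 32 members at 55% and over, and the genes at 5 to 50 CPM gave -0.06 and -0.13. With vehicle against sham the same groups of members had -0.18 and 0.06, and other genes had -0.08 and 0.06, and the members under 45% had -0.11 without vehicle mouse 1. Both comparisons use the vehicle-treated mice. Without vehicle mouse 1 the members at 55% and over had -0.17 between lactate and vehicle and -0.02 with vehicle against sham, and leaving out any 1 mouse the members under 45% ranged from -0.07 to 0.03 between lactate and vehicle. Spearman's rho across the 167 members was -0.24 for GC content between lactate and vehicle and 0.27 with vehicle, and with lactate against sham it was 0.08. For transcript length rho was 0.05, -0.13 and -0.11 in that order. The part of base composition in the differences between members was not tested.

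**Figure D5:**
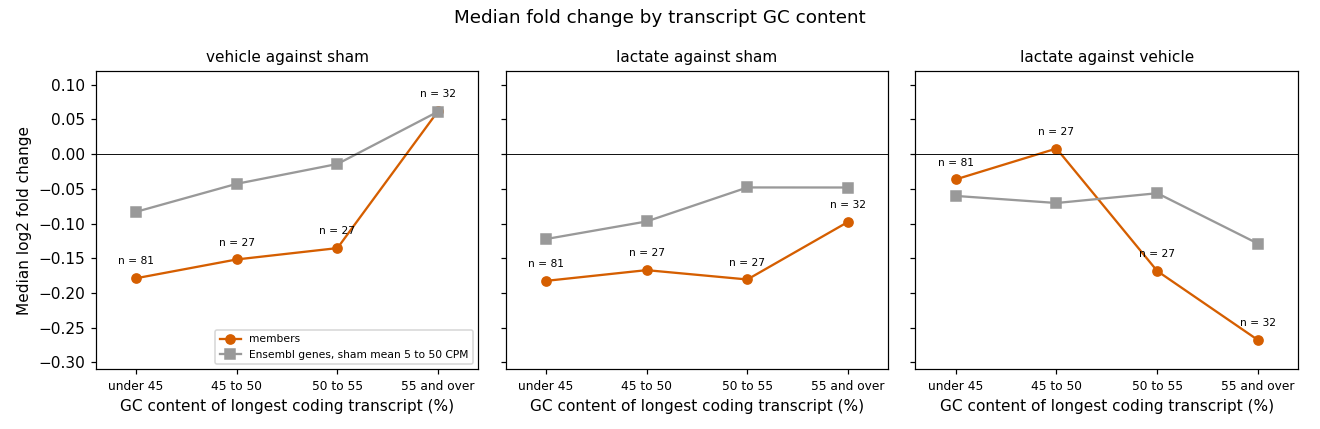
Median log2 fold change (y axis) by GC content of the longest coding transcript (x axis, in %) for members and for Ensembl genes with a sham mean of 5 to 50 CPM, in the 3 comparisons, with the number of members at each point. In the right panel members at 55% and over lie at -0.27 and the other genes at -0.13.

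The partners of KRAB proteins were given as a list of 21 genes, 20 of which were tested. With vehicle 1 fell and 0 rose (5%), and with lactate 2 fell and 0 rose (10%), where 1.47% and 12.3% of all genes passed. Of all genes, 0.182% and 3.55% fell. The medians were -0.19 and -0.16, where the Ensembl genes at 5 to 50 CPM had -0.02 and -0.08. Between the ischemic groups 0 passed, with a median of -0.03. The DNA methyltransferase Dnmt3a had 60.9 to 75.6 CPM in sham, 34.6 to 45.3 CPM with vehicle and 39.2 to 58.6 CPM with lactate, and fell in both comparisons, with log2 fold changes of -0.71 ± 0.15 (adjusted p = 0.0285) and -0.43 ± 0.13 (adjusted p = 0.0496). Setdb1 had 33.1, 25.2, 20.6 and 26 CPM in sham and 12.7, 13.1, 16.7 and 22.1 CPM with lactate, overlapping by 1 mouse of each group, and fell with lactate (log2 fold change -0.66 ± 0.19, adjusted p = 0.0404). Trim28, the corepressor itself, had 16.4 ± 2.47, 14.0 ± 1.58 and 15.3 ± 2.46 CPM in sham, vehicle-treated and lactate-treated mice (adjusted p = 0.690 and 0.838 against sham).

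Of related zinc finger families, 32 of 40 Zbtb genes were tested with vehicle, where Zbtb16 rose and 0 fell, and 33 with lactate against sham, where Zbtb16 and Zbtb45 rose and 0 fell. Of 27 Zscan and Zkscan genes, 16 were tested with vehicle and 0 passed, and 15 with lactate against sham, where 0 rose and 1, Zkscan2, fell. Of all genes tested, 1.47% passed with vehicle and 12.3% with lactate against sham. The median log2 fold change of the Zbtb genes was 0.10 with vehicle and -0.10 with lactate, and that of the Zscan and Zkscan genes was -0.30 and -0.45.

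Of the 224 genes with a Zfp symbol under 5 CPM in sham, 153 were tested with vehicle and 151 with lactate against sham. With vehicle 2 rose and 1, Zfp619, fell, and with lactate 2 rose and 6 fell, and the medians were -0.18 and -0.22. That is 1.96% and 5.30% of those tested, against 1.47% and 12.3% of all genes. Of all genes, 0.182% and 3.55% fell. The genes that rose were Zfp36 and Zfp189 in both comparisons, named here after their values were seen. Zfp36, which encodes tristetraprolin, a protein that binds AU-rich elements and directs messenger RNA to decay, rose from 3.29 CPM in sham to 20.7 CPM with vehicle and 14.0 CPM with lactate, with log2 fold changes of 2.69 ± 0.41 (adjusted p = 0.00467) and 2.12 ± 0.29 (adjusted p = 0.000576). Of 18 genes listed for messenger RNA decay by the Zfp36 family, which include relatives of Zfp36, 0 passed with vehicle, and with lactate only the deadenylase subunit Cnot6 did, which fell with a log2 fold change of -1.23 ± 0.31 (adjusted p = 0.0203).

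Markers of the cell types in brain and blood were summed in the same mice. The 10 neuron markers summed to 4405 to 4557 CPM in sham, 3682 to 5570 with vehicle and 3934 to 4342 with lactate, and 0 passed in any comparison. The 8 microglia markers summed to 285 to 327, 235 to 314 and 378 to 417 CPM. With vehicle C1qb rose and P2ry12 and Cx3cr1 fell, and with lactate C1qa and C1qb rose and P2ry12 fell. The 7 neutrophil and monocyte markers summed to 0.446 to 3.56 CPM in sham, with 2 of them at 0, and to 8.95 to 73.7 and 21 to 43.4 CPM in the ischemic groups, where S100a8 and S100a9 rose with both. Of these 7, 2 were tested with vehicle and 3 with lactate, and Retnlg, which rose with lactate, was not tested with vehicle. The 5 red blood cell markers summed to 560 to 633 CPM in sham, 333 to 500 with vehicle and 375 to 499 with lactate, and 4 fell with lactate. The 8 astrocyte markers summed to 6283 to 10143, 9717 to 11578 and 9727 to 11555 CPM, and Gfap rose with both. The 6 endothelial markers summed to 152 to 158, 136 to 185 and 174 to 219 CPM, and with lactate Ly6c1 rose and Slco1a4 fell. The 6 choroid plexus markers summed to 1.22 to 4.62 CPM in sham, 4.55 to 1841 with vehicle and 9.70 to 18.8 with lactate. Vehicle mouse 2 stood apart with 1817 CPM of Ttr, against 2.64 to 13.8 CPM in the other vehicle-treated mice, and Ttr, the only 1 of the 6 that was tested, rose with lactate. The part of these cell types in the levels of the members was not tested.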

How the data were processed

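Brain RNA of 4 sham, 4 vehicle-treated and 4 lactate-treated ischemic mice was analysed from 1 deposited table. Groups and mouse numbers follow the titles of the samples. The authors made the deposited count values from full-length long reads (quality of at least 7, length of at least 500 bases) after removal of ribosomal RNA, by mapping, polishing of isoforms and comparison with known transcripts, without normalization. In the deposited CPM columns the authors had divided each count by the total of its mouse. The submitters' processing notes name GRCm38 and DESeq 1.10.1, without giving their role. How reads were assigned to genes, and whether strand was used, is not given in the sources used here. The table also holds the authors' own fold changes and p-values, which were not used. A further 4 lines without a gene were dropped.

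The members and gene lists were chosen with earlier results of these data known. Groups were compared 2 at a time by the quasi-likelihood test of edgeR 4.0.16 (R 4.3.3), with TMM factors and genes that reach 1 CPM in 4 or more of the 8 mice. P-values were adjusted by Benjamini-Hochberg across every gene tested, and "rose" and "fell" mean an adjusted p under 0.05. The labels do not say more of the mice than their group and number, so p-values measure the spread between these samples. The genes named are, in each comparison, the 5 members of each sign with the smallest p, all members that passed, the 5 highest in sham, the genes beside the 5 CPM limit, and 12 members with known roles; other genes are named for their cluster or as said in the text. Positions, exon lengths and transcripts come from GENCODE M21 on GRCm38, and upstream sequences from RefSeq (GRCm38.p6). The planned sorting of members by a KRAB pattern in RefSeq proteins could not be run without protein sequences and was replaced by the domain entries of the deposited table. Alternatives were DESeq2 1.42.0, limma 3.58.1 voom, other size factors, filters and gene sets, 1 fit of 12 mice, a replicate block, other rules for members and leaving out each mouse. Figures and tables were made with Python 3.11.15, numpy 2.4.6, pandas 2.3.3 and matplotlib 3.10.9.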

Additional observations from a re-analysis of the deposited data

Results flagged for a closer look

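In groups of 4 mice, 114 groups of the named members were screened for a mouse apart from its group (gap to the nearest other, divided by the range, above the 95% critical value of Dixon's test), which chance gives in about 1 in 20 groups, and 9 values were found. Vehicle mouse 1 was the lowest of its group for Zfp637 (86.3 CPM, others 118 to 119), Zfp938 (65.6 CPM, others 110 to 119) and Zfp330 (38.7 CPM, others 64.6 to 68.6), and the highest for Zfp365 (102 CPM, others 38.1 to 45.5). For Zfp354b, sham mouse 3 (6.38 CPM, others 4.62 to 4.69) and lactate mouse 3 (4.22 CPM, others 1.86 to 2.03) were the highest of their groups, and sham mouse 3 was the lowest for Zfp330 (58.5 CPM, others 72.9 to 75.6). Vehicle mouse 4 was the lowest for Zfp281 (8.66 CPM, others 11.4 to 11.6), and lactate mouse 4 the lowest for Zfp365 (38.3 CPM, others 46.2 to 47.2).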

How the results depend on the processing

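Of the fold changes recomputed under the alternatives (the 5 members of each sign with the smallest p and those that passed) and the medians over all members, none changed sign, while some medians over classes did without 1 mouse. The median of members at 55% GC and over with vehicle went from 0.06 to -0.02 without vehicle mouse 1, and between the ischemic groups the highest value was 0.03 for members under 45% and 0.01 for KRAB members. The limits here are 4 mice per group, a median of 72 to 81 reads per member and mouse, and 1 deposited table. With vehicle against sham, 1 member rose under DESeq2, and 1 gene, Zfp36, rose under the rule that uses the mean of all 12 mice. At the looser limits the counts of higher and lower members, 3 and 5, were 5 and 3 under that rule, 0 and 2 among members at 10 CPM or more, 7 and 12 at a fold change of at least 1.2, and 1 and 0 at 2, and 3 were lower with only Ensembl genes. Leaving out 1 mouse they ranged from 2 to 6 and from 3 to 9.

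With lactate against sham, 4 members fell in 1 fit of all 12 mice and 5 with only Ensembl genes. Leaving out 1 mouse, 3 to 9 fell and 1 to 3 rose. At the looser limits 2 were higher under limma voom, 2 with only Ensembl genes, 2 under the mean of all 12 mice, 0 without a filter on low counts, 4 at a fold change of 1.2 and 0 at 2. The number lower was 12 with only Ensembl genes, 10 among members at 10 CPM or more, 40 at 1.2 and 1 at 2. Leaving out 1 mouse gave 1 to 3 higher and 12 to 22 lower. The median was -0.12 under the mean of all 12 mice.

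Between the ischemic groups the number higher at the looser limits, 1, was 2 with the replicate block, 0 at 10 CPM or more, 3 at 1.2 and 0 at 2, and the number lower, 6, was 3 at 10 CPM or more and 0 at 2. Leaving out 1 mouse gave 0 to 4 and 1 to 8. The cause of these changes was not tested, apart from the changed limits themselves.

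The labels do not say that the replicate numbers pair the mice, and correlations of the deviations of same-numbered mice ran from -0.14 to 0.15. Whether same-numbered mice shared a batch is not given. With the replicate block the medians were -0.15, -0.19 and -0.09, and the calls for Zfp637 and Zfp433 with lactate against sham were lost (adjusted p = 0.0502 and 0.0564 by edgeR). The number of members that fell was 10 there as well, so other members were called in their place. The sorting of members by a KRAB pattern in proteins was not run, and domain entries took its place. The pathway annotation, an alternative to those entries, was added after seeing the data.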
